A study of Mus musculus with 2 samples.

Results

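Cholesterol synthesis in the newborn mouse kidney was followed through 8 genes. Of these, 7 encode enzymes of the pathway (Hmgcs1, Idi1, Fdps, Fdft1, Sqle, Cyp51 and Sc5d), and Insig1 encodes a brake on the pathway. They are listed as hmgcs1, idi1, fdps, fdft1, sqle, cyp51, sc5d and insig1 among 9590 genes in the control library and among 9545 in the exposed library. The genes were selected on values of these same libraries, namely their levels by cell cluster and the exposed over control ratio, so their levels and ratios are a description and carry no test. The single-cell libraries were made from whole kidneys of C57BL/6J mice at postnatal day 2 in a study of kidney development after diabetes in the mother. One group was the control and the other, labelled DM_Exp, had been exposed to maternal diabetes, with 1 library in each group. The mice are given as male. Cells pooled from 1 kidney per group were freed with trypsin, filtered and frozen in fetal calf serum with DMSO, and the labels do not say how the diabetes was brought about. With 1 library per group, the exposure cannot be told apart from the animal, the litter or the preparation, and no p-value is given. All 95% intervals below cover counting error only, not the spread between cells, kidneys or animals.

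Every animal cell can build cholesterol from acetyl-CoA. The mevalonate pathway makes isoprenoid units, which are joined to farnesyl diphosphate and squalene, closed into the ring of lanosterol and trimmed to cholesterol. When sterol in the endoplasmic reticulum runs low, the carrier SCAP takes the transcription factor SREBP2 to the Golgi, where it is cut and freed to switch on the genes of the enzymes, while INSIG proteins hold SCAP back when sterol is plentiful. In the kidney the developing tubule builds much new membrane, and the proximal tubule takes up carriers of lipids and vitamins from the filtrate.

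The 8 genes lie on 6 chromosomes of the mouse genome, build GRCm38 (mm10), in the GENCODE M21 annotation, and each codes for a protein. Hmgcs1 lies at chr13:119690379-119708260 and Idi1 at chr13:8885501-8892451, both on the plus strand. Insig1 lies at chr5:28071363-28078662 on the plus strand and Cyp51 at chr5:4081145-4104746 on the minus strand. Sc5d lies at chr9:42251595-42264256 on the minus strand. Fdps lies at chr3:89093588-89101959 and Fdft1 at chr14:63145150-63179578, both on the minus strand, and Sqle lies at chr15:59315077-59331192 on the plus strand.

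Promoters are shown because these genes share a known regulator, SREBP2, which binds sterol regulatory elements and some E-boxes, often beside CCAAT and GC boxes. RefSeq promoter windows (GRCm38.p6) were found for 5 of the 8 genes, namely Hmgcs1, Idi1, Cyp51, Sc5d and Insig1. The 250 bases before the RefSeq start site, which end each window, were searched on both strands. Distances below count from that RefSeq start, which differs from the GENCODE gene start given above. The sterol regulatory element core TCACNCCAC occurred in 1 of the 5 windows, that of Hmgcs1, 137 bases before the start, and in 1.05% of all 32851 windows. The E-box CACGTG occurred in 2 of the 5, at 101 bases before the RefSeq start of Insig1 and 98 before that of Sc5d. It occurred in 6.02% of all windows. The Insig1 window runs to 28071411, past the GENCODE start, and its printed part below is cut before that start. CCAAT occurred in 5 of 5 and in 33.9% of all windows, and the GC box GGGCGG in 5 of 5 and in 32.7%. By the GENCODE positions above, the windows of Idi1, Cyp51 and Insig1 run into the gene. The CCAAT and GC boxes of Idi1 and the CCAAT box of Cyp51 lie in that stretch. None of these motifs contains another, and a match describes the letters only. The windows with an element core or an E-box are printed 5′ to 3′ on the strand of the gene. Capitals mark the element core, the E-box and the CCAAT box (ATTGG on the other strand). They lie at chr13:119690101-119690350 (plus strand, 250 bases), chr5:28071162-28071362 (plus strand, 201 bases, ending before the annotated transcript) and chr9:42264301-42264550 (minus strand, 250 bases).
Hmgcs1: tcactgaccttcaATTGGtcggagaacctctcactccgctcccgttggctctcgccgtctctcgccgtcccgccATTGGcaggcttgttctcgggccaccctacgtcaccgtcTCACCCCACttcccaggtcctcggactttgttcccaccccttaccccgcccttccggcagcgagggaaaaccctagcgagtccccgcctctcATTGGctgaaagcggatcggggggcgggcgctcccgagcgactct
Insig1: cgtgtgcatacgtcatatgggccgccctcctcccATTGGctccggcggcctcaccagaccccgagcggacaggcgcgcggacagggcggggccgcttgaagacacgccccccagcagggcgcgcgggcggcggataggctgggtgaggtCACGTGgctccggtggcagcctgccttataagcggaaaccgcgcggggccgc
Sc5d: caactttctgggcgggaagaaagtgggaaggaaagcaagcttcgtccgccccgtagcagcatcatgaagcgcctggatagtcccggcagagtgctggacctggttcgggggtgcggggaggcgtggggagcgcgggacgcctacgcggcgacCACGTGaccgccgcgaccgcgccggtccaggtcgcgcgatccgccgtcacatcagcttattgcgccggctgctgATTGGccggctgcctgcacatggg

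The control library holds 9071 cells and the exposed library 5494, with a median of 3453 and 4252 UMIs per cell. A UMI (unique molecular identifier) marks 1 captured transcript. Mitochondrial transcripts made up 16.15% and 11.62% of the deposited UMIs, in that order. Between the libraries 14 cell barcodes are shared, 0.154% of control and 0.255% of exposed cells. The cells were read in the authors' clusters, numbered separately in each library, and clusters were named by markers and paired by those names. The pairs are called nephrogenic (nephron progenitor and differentiating nephron-like; 3335 control and 1963 exposed cells), stromal (stroma and pericyte-like; 2670 and 1614), endothelial (710 and 491), distal (distal tubule and intercalated cell-like; 501 and 374), proximal (the larger proximal tubule-like cluster; 471 and 174), mitochondria-rich proximal (148 and 148), podocyte-like (354 and 254), and macrophage and neutrophil-like (181 and 117). The nephrogenic and distal pairs are not of the same cell mix in both libraries. Of 11 ureteric bud and collecting duct markers, 6 were detected in the control and 2 in the exposed nephrogenic cluster. In the distal clusters 2 were detected in control and 6 in exposed cells. The cluster led by Slc12a3 and Calb1 stayed unnamed because 4 hemoglobin genes lead it in the exposed library, and a second unnamed pair is almost wholly mitochondrial (medians of 97.9% and 98.0% mitochondrial UMIs).

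The 8 genes together took 12338 of 39442253 UMIs in the control library and 10179 of 28381167 in the exposed library. Levels are given as CPM, the UMIs of a gene, or of the 8 genes summed, per 1000000 UMIs of the same cells. On this scale the sum stood at 313 (95% Poisson interval 307 to 318) and 359 (352 to 366) CPM. The kit counts 3′ ends, so a level does not depend on transcript length, but levels are compared within a gene and not between genes.

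The summed level was highest in proximal tubule-like cells of both libraries. The control value there was 777 (747 to 809) CPM and the exposed value 733 (690.4 to 778). The mitochondria-rich proximal cells came next, at 446 (379.6 to 521) and 459.7 (397 to 529.6). Nephrogenic cells stood at 373 (364 to 382) and 440.0 (429 to 452), and distal cells at 362 (340.2 to 384) and 443 (420.2 to 467), so the intervals of these neighbours overlapped in each library. A lower group held podocyte-like (167 and 193), endothelial (149 and 200.2) and stromal cells (138 and 189), whose intervals overlapped within each library. Macrophage and neutrophil-like cells were lowest of the named pairs, at 88.3 (63.4 to 119.8) and 94.5 (67.2 to 129), and the mitochondrial pair held 11.9 and 15.9. The order from the proximal group down to the myeloid cells was thus alike in the libraries, except among neighbours with overlapping intervals.

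Hmgcs1, the cytosolic HMG-CoA synthase of the mevalonate pathway, accounted for much of the proximal peak. Without Hmgcs1 the sum stood at 298 and 293.5 in proximal cells, beside 263 and 318 in nephrogenic cells. The proximal sum of the other genes was thus above the nephrogenic one in the control library only. Its level in proximal cells was 479 (455 to 504) in control and 440 (407 to 475) in exposed cells, against 110 and 122 in nephrogenic, 165 and 181 in distal, and 32.3 and 44.8 in stromal cells. It held 61.7% of the UMIs of the 8 genes in control proximal cells and 59.96% in exposed ones. In nephrogenic cells its share was 29.5% and 27.8%, and in stromal cells 23.3% and 23.7%. The proximal pair therefore stood apart from nephrogenic and stromal cells in the makeup of these UMIs, and in their sum with Hmgcs1 included.

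Idi1, which interconverts the isoprenoid units isopentenyl and dimethylallyl diphosphate, was about as high in nephrogenic (66.7 and 77.1) as in proximal cells (71.3 and 68.4). Stromal cells held 12.3 and 21.6. Fdps, which joins the units to farnesyl diphosphate, peaked elsewhere: its nephrogenic levels were 52.9 and 63.9 and its distal levels 48.0 and 57.8, against 28.0 and 35.5 in proximal cells. So the early steps do not share 1 peak across the cell classes.

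Fdft1, the squalene synthase, was nearly level across epithelial classes, with 31.0 and 35.8 in nephrogenic, 30.9 and 40.6 in distal and 31.2 and 28.8 in proximal cells. Sqle, the squalene epoxidase and a flux-controlling step, was highest in proximal cells (53.5 and 48.3), followed by nephrogenic cells (28.8 and 37.7). Cyp51, which removes a methyl group from lanosterol, was also highest there (71.3 and 63.0), against 28.5 and 37.8 in nephrogenic and 15.4 and 20.5 in stromal cells. Sc5d, a desaturase of the last steps, lay between 21 and 22.1 in control and between 22.4 and 27.8 in exposed nephrogenic, distal and proximal cells.

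Insig1 was highest among the larger classes in nephrogenic cells, at 33.1 and 43.0, while proximal cells held 21.7 and 22.1. Its distal levels were 12.4 (8.65 to 17.1) in control and 24.9 (19.7 to 31.1) in exposed cells, with intervals that do not overlap. In the mitochondria-rich proximal cells Insig1 rested on 4 control and 23 exposed UMIs. Insig1 thus did not share the proximal peak of Hmgcs1, Sqle and Cyp51.

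**Figure D1:**
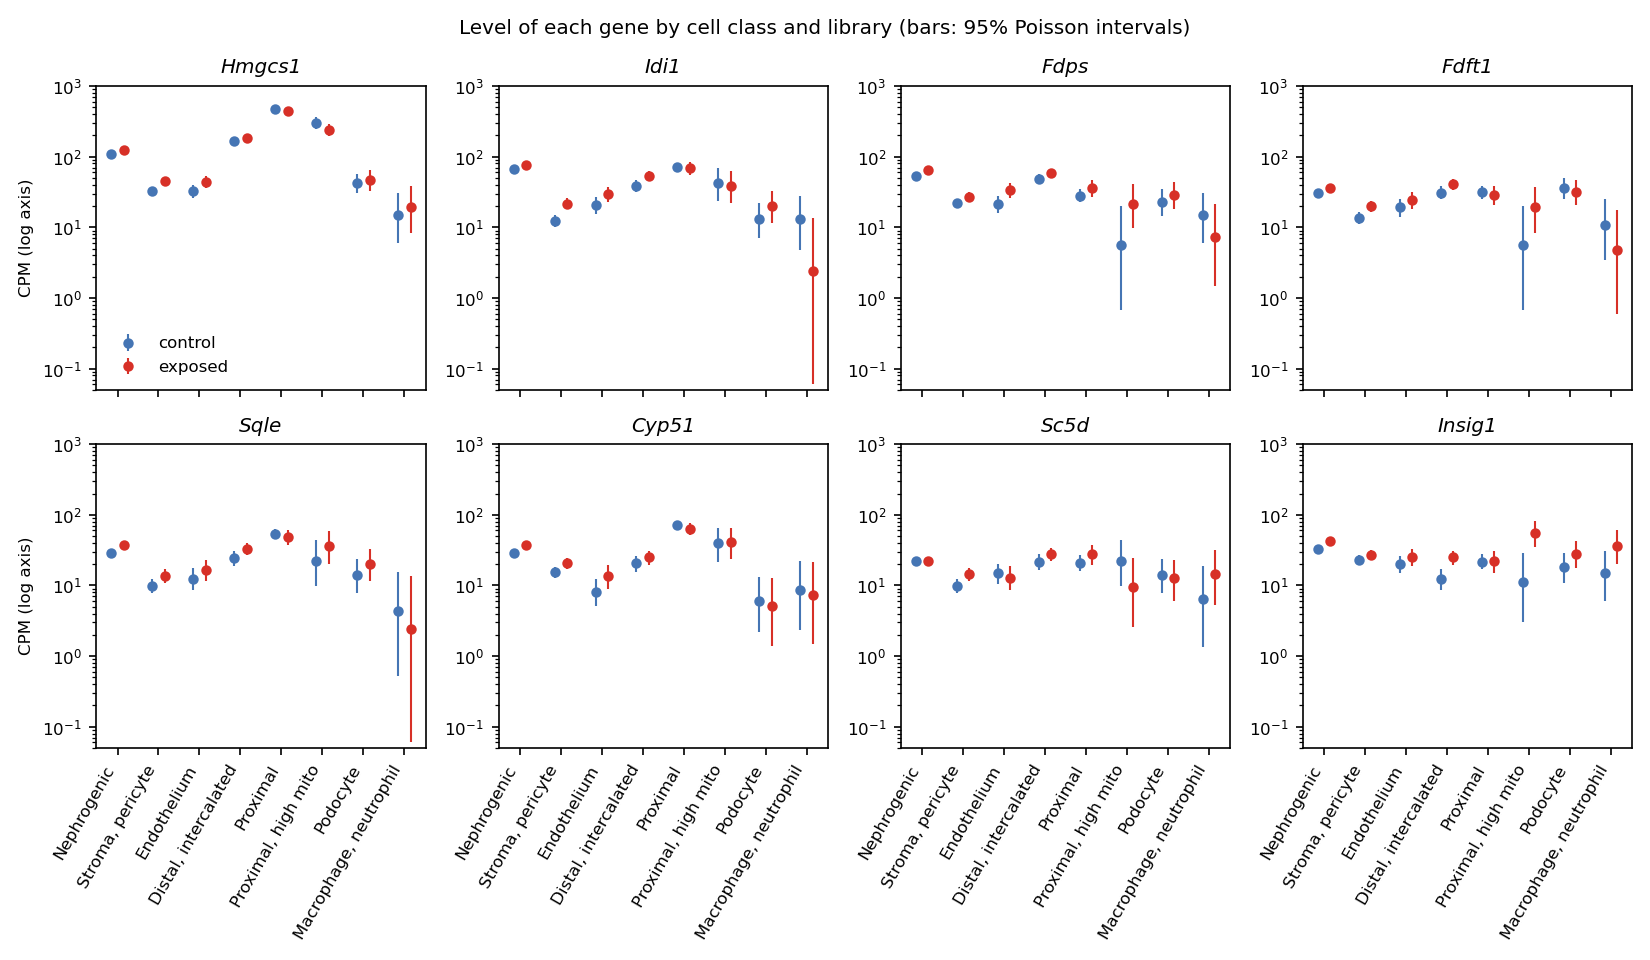
Level of each of the 8 genes (vertical log axis, CPM) in 8 paired cell classes (horizontal axis), with control points in blue and exposed points in red and 95% Poisson intervals as bars. Hmgcs1 stands at 479 and 440 in proximal cells and at 32.3 and 44.8 in stromal cells, and the Insig1 points of distal cells, 12.4 and 24.9, stand apart.

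Over all cells, the summed level was 1.15 times the control level in the exposed library (1.12 to 1.18). Insig1 had the highest ratio, with 25 and 33.3 CPM and a ratio of 1.33 (1.22 to 1.46). Among the enzymes, Fdps (37.5 and 46.9) had a ratio of 1.25 and Sqle (23.1 and 28.8) also 1.25. Fdft1 (24.5 and 29.8) had 1.22, Idi1 (44.8 and 52.7) 1.18 and Cyp51 (25.1 and 29.5) 1.17. For each of these genes the counting interval lay above 1. The intervals of Sc5d (17.4 and 19.5, ratio 1.12, 0.997 to 1.25) and of Hmgcs1 (116 and 118, ratio 1.02, 0.979 to 1.07) included 1, and without Hmgcs1 the sum had a ratio of 1.22 (1.18 to 1.26).

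All 8 genes were higher in the exposed library, where 65.6% of all 8927 genes with at least 50 UMIs were higher, and the median ratio was 1.2 for the 8 genes and 1.04 for all genes. A ratio of 1.2 or more was met by 4 of the 8 genes and by 6.59% of all genes, or 4.10% of the genes within the control levels that the 8 genes span. None of the 8 was lower by 1.2 times or more, against 3.62% of all genes. The direction of Hmgcs1 turned with the scaling, from a log2 ratio of 0.032 to -0.039 without mitochondrial genes in the total and -0.025 when divided by the median ratio of all genes. The ratio also mixes cell classes. With exposed clusters weighted to the control library's mix, the log2 ratio of the sum was 0.21, beside 0.19 as deposited.

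Each cell with at least 2000 UMIs was reduced to 2000, which kept 7611 control and 4972 exposed cells. Thinning gives each kept cell the same weight, but it leaves differences between cells captured at unlike depth in place. The ratio of the sum was then 1.14 (1.09 to 1.2) and that of Insig1 1.31. With cells of at least 4000 UMIs reduced to 4000, the log2 ratio of the sum was 0.083, beside 0.19 as deposited. In cells of like depth the ratio was 1.10 (0.920 to 1.3) under 2000 UMIs, 1.04 (0.971 to 1.12) at 2000 to 4000, 0.983 (0.929 to 1.04) at 4000 to 6000, 1.14 (1.09 to 1.2) at 6000 to 10000 and 1.08 (1.03 to 1.14) at 10000 or more, each below the 1.15 of all cells together. In cells thinned to 2000 UMIs, 3 of the 8 genes reached 1.2, against 10.7% of all genes. In stromal cells 7 of 8 did, against 11.9%, and in nephrogenic cells 2 of 8, against 6.64%. Stromal, endothelial and distal cells had the 3 highest ratios of the sum among the 5 larger classes, both as deposited and in thinned cells.

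Stromal cells had the highest ratio of the sum among the 5 larger classes. The sum stood at 138 CPM in control and 189 in exposed stromal cells, a ratio of 1.36 (1.26 to 1.48), and 1.39 (1.23 to 1.56) in thinned cells. Idi1 stood at 12.3 and 21.6, a ratio of 1.76 (1.34 to 2.30). Hmgcs1, which differed little over all cells, had a ratio of 1.39 (1.17 to 1.65) here, and Insig1 was the lowest of the 8 at 1.17 (0.946 to 1.46). A ratio of 1.2 or more was met by 7 of 8 genes, against 9.83% of all genes and 13.2% of genes at like control levels. All 8 were higher, against 54.0% of all genes, and none was lower by 1.2 times, against 9.50%. In the same cells 15 of 16 S and G2/M phase genes were lower in the exposed library (summed 2010 and 1719 CPM) and the pericyte, smooth muscle and renin markers were higher (2551 and 3700). Their part in the result was not tested.

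In nephrogenic cells the sum stood at 373 and 440.0, a ratio of 1.18 (1.14 to 1.22), and at 1.14 (1.06 to 1.22) in thinned cells. Cyp51 had the highest ratio, 1.33 (1.17 to 1.5), beside Sqle at 1.31 (1.16 to 1.49) and Insig1 at 1.30 (1.16 to 1.46). Sc5d, at 22.1 and 22.4, had a ratio of 1.01 (0.868 to 1.18). A ratio of 1.2 or more was met by 4 of 8 genes, against 7.77% of all genes and 4.71% at like control levels. All 8 were higher (Sc5d turned to a log2 ratio of -0.020 without mitochondrial genes in the total), against 48.4%, and none was lower by 1.2 times, against 14.8%. Collecting duct genes lay partly in this control cluster (marker sum 1304) and less in the exposed one (688), and all 10 heat shock genes were higher in the exposed cells (14190 and 17950). Their part in the result was not tested.

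Endothelial cells held fewer UMIs of these genes, 381 and 434. The sum had a ratio of 1.35 (1.17 to 1.55), and 1.26 (0.997 to 1.62) in thinned cells. By depth band the ratios were 1.05, 1.16, 1.22 and 1.36, from under 2000 to 10000 UMIs, and each of these intervals included 1. Fdps, at 21.1 and 33.7, had a ratio of 1.60 (1.11 to 2.32), and Sc5d, at 14.8 and 12.9, was the only 1 of the 8 with a lower level in the exposed cells (0.872, 0.515 to 1.46). In thinned cells Fdft1 was below 1 as well (0.978), and Sqle (1.12) and Insig1 (1.11) were under 1.2. As deposited, a ratio of 1.2 or more was met by 7 of 8 genes, against 17.8% of all genes and 27.9% at like control levels. Of all genes, 56.8% were higher and 13.2% lower by 1.2 times. All 16 S and G2/M phase genes were higher in the exposed endothelial cells (summed 1345 and 1706 CPM), but in thinned cells 11 were higher and 5 lower (1439 and 1498). Their part in the result was not tested.

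Distal cells showed the widest gap for a single gene among the 5 larger classes. Insig1, at 12.4 and 24.9, had a ratio of 2.02 (1.34 to 3.08), from 36 and 78 UMIs. After thinning, the ratio was 2.14 (0.978 to 5.42), an interval that includes 1 and rests on rounded means of 10 and 18 UMIs. In the 1 draw used for shares, 2.18% (exact Clopper-Pearson 1.05 to 3.98) of thinned control distal cells held an Insig1 UMI. In thinned exposed distal cells the share was 5.69% (3.56 to 8.57). Before thinning the shares were 6.19% and 14.7%. The thinned ratio, by contrast, is of means over all draws. The sum of the 8 genes stood at 362 and 443, a ratio of 1.23 (1.13 to 1.33), while Hmgcs1, at 165 and 181, had 1.09 (0.966 to 1.24).

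The background was also high in distal cells. A ratio of 1.2 or more was met by 7 of 8 genes, against 39.3% of all genes and 37.1% at like control levels, and the median ratio of all genes was 1.13. All 8 were higher (Hmgcs1 turned to -0.024 without mitochondrial genes in the total), against 73.0%, and none was lower by 1.2 times, against 7.69%. The share of mitochondrial UMIs in these cells was 25.7% and 17.4%, and 13 of 14 immediate early genes were higher by 1.2 times or more (summed 1879 and 3814). Collecting duct markers were higher in the exposed cluster as well (758 and 2641). On the log2(level + 10) scale, the Insig1 ratio was 0.64 as deposited, 0.53 with cells assigned to the nearest control cluster, 0.44 without cells over 25% mitochondrial UMIs and 0.47 when divided by the median ratio of all genes, so its level was higher in the exposed cells under each of these settings.

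Proximal cells differed from the other larger classes. Their summed level stood at 777 and 733, a ratio of 0.943 (0.878 to 1.01), and 0.963 (0.828 to 1.12) after thinning. Hmgcs1, at 479 and 440, had a ratio of 0.917 (0.836 to 1.01), and Cyp51, at 71.3 and 63.0, had 0.883 (0.687 to 1.13). The highest were Sc5d at 1.31 (0.863 to 1.96) and Fdps at 1.27 (0.884 to 1.80), and the intervals of all 8 genes included 1. A ratio of 1.2 or more was met by 2 of 8 genes, against 17.9% of all genes and 15.5% at like control levels. Of the 8, 3 were higher, against 53.6% of all genes, and none was lower by 1.2 times, against 15.8%. The interval of the ratio of the sum in proximal cells does not overlap those of nephrogenic, stromal, endothelial and distal cells as deposited. In thinned cells it overlaps those of nephrogenic (1.06 to 1.22), endothelial (0.997 to 1.62) and distal cells (1.05 to 1.44) and lies apart from that of stromal cells (1.23 to 1.56). Thinned intervals rest on fewer UMIs (652 and 238 in proximal cells, against 2441 and 1094 as deposited) and are wider for that reason. The difference between classes was not tested, since each rests on 1 library per group.

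The remaining pairs hold too few UMIs to read gene by gene. The sum had a ratio of 1.15 (0.919 to 1.45) in podocyte-like cells, 1.03 (0.831 to 1.28) in mitochondria-rich proximal cells and 1.07 (0.672 to 1.70) in macrophage and neutrophil-like cells. These 3 intervals include 1. In the mitochondria-rich proximal cells the sum without Hmgcs1 had a ratio of 1.48 (1.04 to 2.12), from 53 and 92 UMIs. After thinning it was 2.1 (1.17 to 3.83), from rounded means of 17 and 50 UMIs. Insig1, from its 4 and 23 UMIs, had 4.91 (1.68 to 19.5) as deposited. Erythroid markers summed to 2265 CPM in the control cluster of this pair and to 4.79 in the exposed one, and their part was not tested. The unnamed Slc12a3 and Calb1 pair had a ratio of 2.0 (1.40 to 2.93), from 40 and 131 UMIs, and hemoglobin and other erythroid markers summed to 6.45 CPM in its control and 19350 in its exposed cluster.

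**Figure D2:**
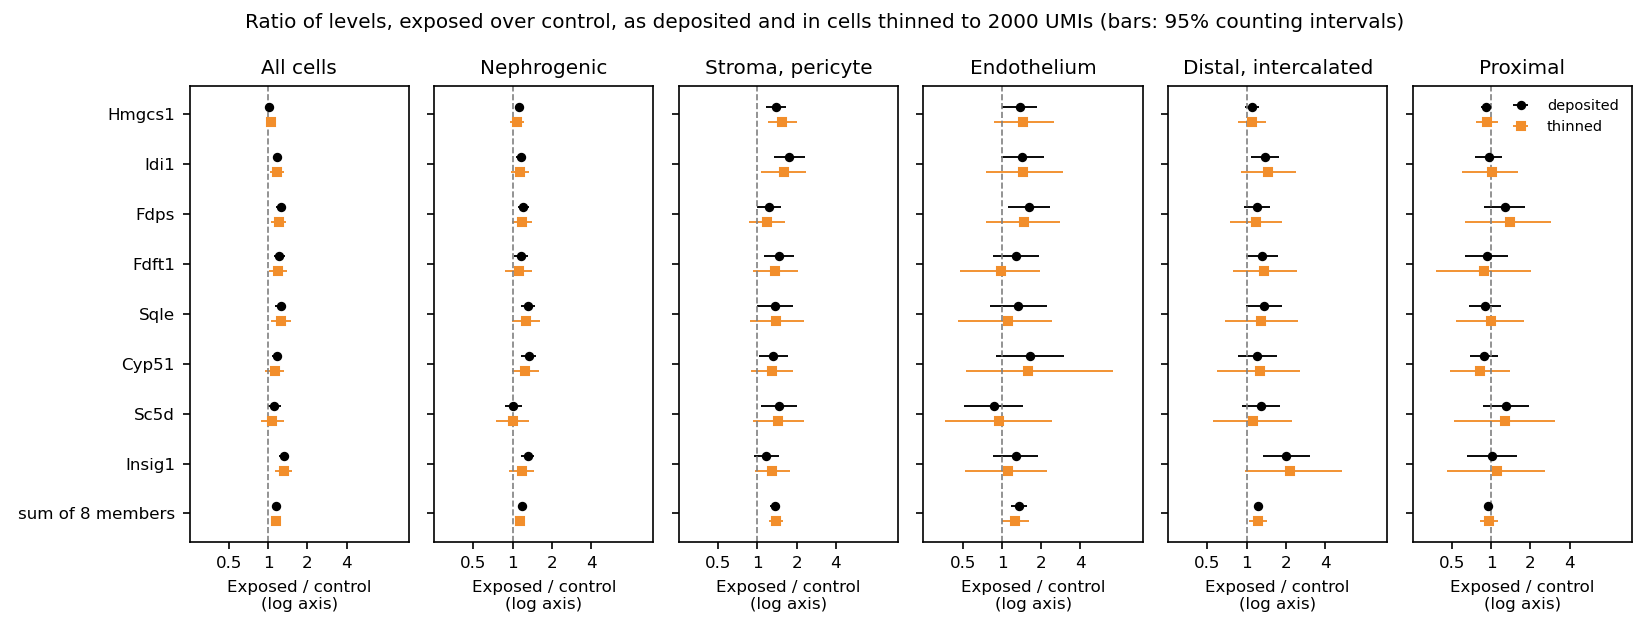
Exposed over control ratio of each of the 8 genes and of their sum (horizontal log axis) over all cells and in 5 cell classes, as deposited (black circles) and in cells thinned to 2000 UMIs (orange squares), with 95% counting intervals as bars. The sums lie above 1 in each panel but the proximal one (0.943), and Insig1 (2.02) stands out in distal cells.

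Over all cells, which mix classes of unlike depth and level, depth per cell went with the level of these genes from 2000 UMIs upward. The summed level in the control library went from 192 in cells of 2000 to 4000 UMIs to 479 in cells of at least 10000. In the exposed library it went from 199.6 to 518. Control nephrogenic cells went from 295 to 430 over these bands. Under 2000 UMIs the control levels were 206 over all cells and 314 in nephrogenic cells, each above the band of 2000 to 4000. Control stromal cells held 162 under 2000 UMIs, and 127, 147 and 161 in the bands from 2000 to 10000, a rise as well. Control endothelial cells held 144, 128, 179.5 and 135.5 from under 2000 to 10000 UMIs, with no steady rise. Nephrogenic cells of the exposed library were also deeper, with a median of 5462 UMIs per cell against 4375. Comparing nephrogenic cells of like depth, the ratio of the sum was 0.860 (0.752 to 0.981) at 2000 to 4000 UMIs, with 295 in control and 254 in exposed cells, and 1.01 (0.934 to 1.09) at 4000 to 6000. It was 1.22 (1.15 to 1.30) at 6000 to 10000, with 402 and 491, and 1.25 (1.18 to 1.33) at 10000 or more. The sum was thus higher in exposed nephrogenic cells of at least 6000 UMIs, about level at 4000 to 6000 and lower at 2000 to 4000, while under 2000 UMIs the ratio was 0.978 (0.679 to 1.39).

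In stromal cells the ratio of the sum changed less from 2000 UMIs upward. Their ratios were 0.976 (0.663 to 1.41) under 2000 UMIs, 1.34 (1.18 to 1.52) at 2000 to 4000, 1.36 (1.17 to 1.58) at 4000 to 6000 and 1.22 (0.937 to 1.59) at 6000 to 10000. The stromal sum was therefore higher in the exposed library in each band of at least 2000 UMIs. In distal cells the ratios were 0.972 (0.687 to 1.35) at 2000 to 4000, 1.13 (0.935 to 1.37) at 4000 to 6000, 1.35 (1.18 to 1.54) at 6000 to 10000 and 1.08 (0.944 to 1.25) at 10000 or more, so that only the band of 6000 to 10000 had an interval above 1. Proximal cells had 50 cells in both libraries only at 6000 to 10000, where the ratio was 0.986 (0.873 to 1.11).

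**Figure D3:**
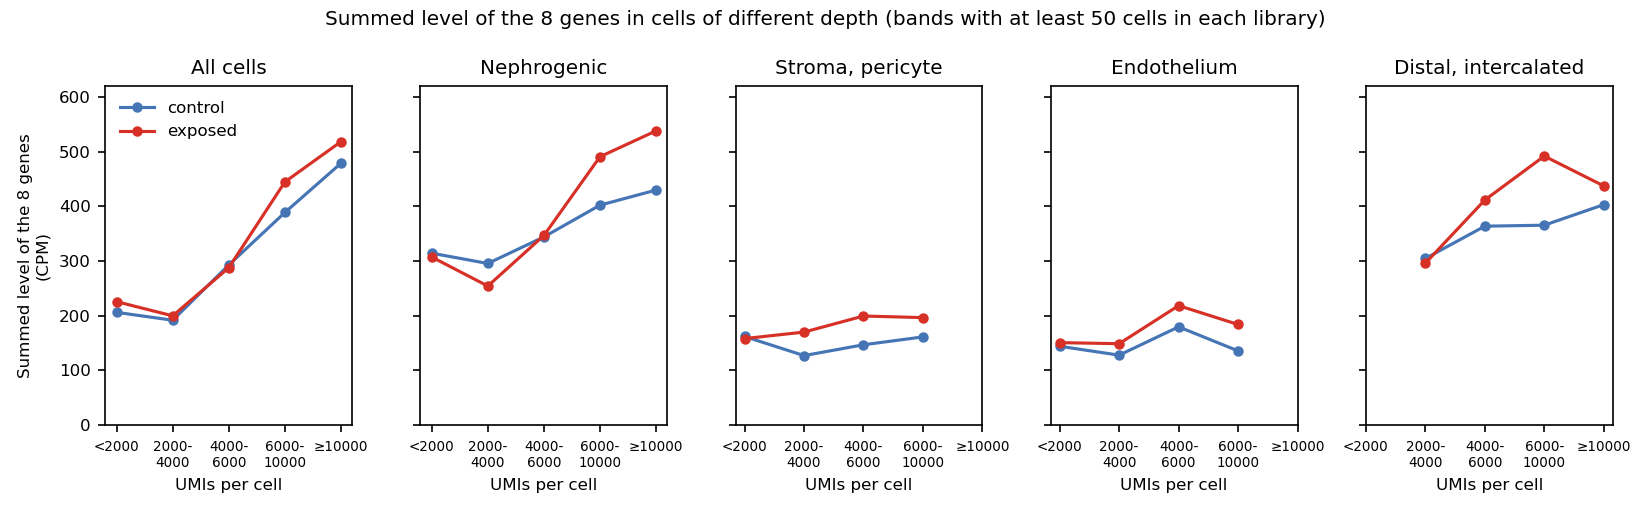
Summed level of the 8 genes (vertical axis from 0, CPM) in cells grouped by UMIs per cell (horizontal axis), for all cells and 4 classes, with control in blue and exposed in red. Nephrogenic lines cross, from 295 and 254 at 2000 to 4000 UMIs to 402 and 491 at 6000 to 10000, while stromal lines stay apart from 2000 UMIs upward.

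Some single cells held transcripts of more than 1 of these genes. In cells thinned to 2000 UMIs, 9.03% (8.39 to 9.69) of all control and 11.1% (10.2 to 12) of all exposed cells held at least 2 of the 8, and no share given by chance was computed. By class, 44.1% (42.4 to 45.9) of control and 47.1% (44.9 to 49.4) of exposed nephrogenic cells held at least 1 of the 8 genes, and 12.8% (11.7 to 14.1) and 16.8% (15.2 to 18.6) held at least 2. In stromal cells the shares with at least 2 were 3.43% (2.70 to 4.30) and 4.98% (3.93 to 6.22). In proximal cells they were 29.2% (25 to 33.7) and 24.6% (18.2 to 31.8). Since all cell types make sterol, no class serves as an empty background, and the share from free RNA in the droplets was not tested. The lowest named class, macrophage and neutrophil-like cells, had shares with at least 1 of 18.4% (12 to 26.3) and 14.4% (7.92 to 23.4).

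Other genes of the route were read from lists. Of 13 further enzymes of the mevalonate and sterol route measured over all cells, 9 were higher in the exposed library and 4 were not, beside 65.6% of all genes higher. Their median ratio was 1.06, against 1.04 for all genes, and 3 reached 1.2, beside 6.59% of all genes. These 3 were Msmo1, Dhcr7 and Hsd17b7. Msmo1, a demethylase acting after Cyp51, stood at 44.3 and 59.7 (ratio 1.35, 1.26 to 1.44). Dhcr7, the last reductase of the route, stood at 15.1 and 18.5 (1.23), and Hsd17b7 at 11.5 and 14.0 (1.21). In nephrogenic cells 5 of 13 reached 1.2, beside 7.77% of all genes, and in stromal cells 5 of 12, beside 9.83%. The summed level of the 13 was 401 and 435 CPM in nephrogenic and 262 and 269 in stromal cells. In endothelial cells 2 of 9 reached 1.2, beside 17.8%. Lower by 1.2 times or more were 1 stromal and 2 endothelial genes, beside 9.50% and 13.2% of all genes. In distal cells 7 of 13 reached 1.2, beside the background of 39.3%, and in proximal cells 1 of 12, beside 17.9%. The route as a whole was therefore less uniform than the 8 genes, which were chosen with values known.

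Genes that sense sterol showed little. Beside the same 65.6% of all genes, of 6 genes for sensing and SREBP processing, 3 were higher and 3 lower (median ratio 0.991), and Srebf2, which encodes SREBP2, stood at 32.3 and 35.2 (1.09, 1.00 to 1.19). Of 6 for uptake and transport, 5 were higher and 1, Mylip, a ubiquitin ligase, was lower (25.3 and 22.4, ratio 0.886, 0.801 to 0.980), a gene picked out after its values were seen. In proximal cells Mylip was the other way round, at 7.64 and 15.4. Of 4 for efflux, storage and the LXR sensors, 3 were higher and 1 lower. The lower one was Abca1, which exports cholesterol from cells, at 15 and 11.5 (0.766, 0.667 to 0.878), and it had a ratio below 1 in each of the 5 larger classes, from 0.411 (0.280 to 0.589) in nephrogenic to 0.647 (0.482 to 0.861) in endothelial cells, with 16 UMIs only in proximal cells.

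Fatty acid synthesis, which is driven by the related factor SREBP1, went the other way over all cells. Of 7 genes, 1 was higher and 6 lower in the exposed library, where 65.6% of all genes were higher, and the median ratio was 0.880. Scd2, a stearoyl-CoA desaturase, stood at 102 and 80.5 (0.787, 0.747 to 0.828), and was at 109 and 70.9 in nephrogenic (0.649), 96.6 and 70.6 in stromal (0.731), 248 and 199 in distal (0.801) and 23.6 and 6.70 in proximal cells (0.284). Fasn, the fatty acid synthase, stood at 25 and 22.6 (0.902, 0.815 to 0.997). The gene that was higher, Elovl6, had a ratio of 1.12 (1.05 to 1.2). By class, 1 of 7 was higher in nephrogenic and in stromal cells, 0 of 5 in endothelial, 3 of 7 in distal and 4 of 7 in proximal cells. The shares of all genes that were higher there were 48.4%, 54.0%, 56.8%, 73.0% and 53.6%.

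**Figure D4:**
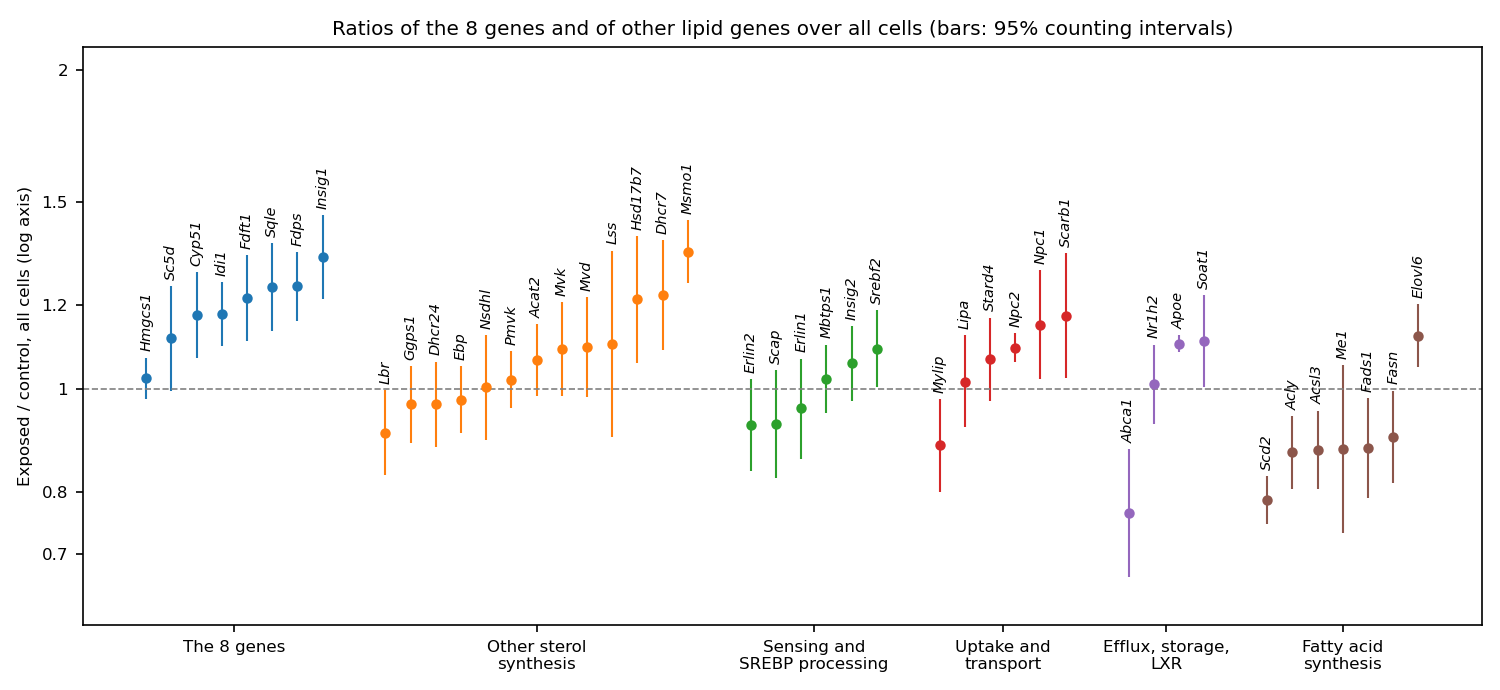
Exposed over control ratio over all cells (vertical log axis) of the 8 genes and of genes from 5 further lists, with 95% counting intervals as bars and each point named. The 8 genes range from 1.02 (Hmgcs1) to 1.33 (Insig1), and Abca1 (0.766) and Scd2 (0.787) are the lowest points.

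The genes whose pattern over the 10 clusters of a library was most like the mean of the 8 were sought among 5812 others. Likeness was the lower of the Pearson correlations in the 2 libraries, over 10 clusters each, on the log2(level + 10) scale, and clusters of 1 library share depth and preparation. The top 5 were Hadh (0.945), a mitochondrial fatty acid oxidation enzyme, Zkscan1 (0.939), a zinc finger protein, Dalrd3 (0.930), Bag2 (0.925), a co-chaperone, and Psmd3 (0.924), a proteasome subunit. Without the mitochondrial pair the top 5 were Nipsnap1 (0.944), Spsb4, Gnai1, Cdh6 and Gm17750. Of the 12 genes highest in each reading, 4 were in both, among them Hadh, Zkscan1 and Bag2. Of the 8, Sqle followed the mean most closely in both readings (0.971 and 0.969), and Insig1 least (0.631 and 0.0907). That mean includes the gene itself, so each of the 8 is bound in part to follow it.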

How the data were processed

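Whole-kidney cells of control and maternal diabetes exposed mice were measured by 10x Chromium 3′ single-cell RNA sequencing (version 2 kit, per the labels), with 1 library per group. The UMI count tables were deposited by the authors, made with Cell Ranger 2.2.0 on mm10, per the submitters' processing notes. Filters on cells and genes are not stated in the sources at hand. The authors also deposited log2 values (log2 of a count over 1 factor per cell, plus 1), the percent of mitochondrial UMIs in each cell, doublet scores and cluster numbers, per the file headers and values. The tools for the doublet scores and the clusters are likewise not stated. The deposited cells were kept, also those with a high doublet score, which 1 alternative left out.

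UMIs were summed per library and authors' cluster and divided by the total of those cells (CPM). Poisson intervals (levels), conditional binomial intervals (ratios) and Clopper-Pearson intervals (shares) are exact, at 95%, apart from those of thinned ratios. The interval of a thinned ratio takes the rounded mean counts as if they were 1 draw. It is therefore approximate, and wider than as deposited because it counts fewer UMIs. Library totals were 39442253 and 28381167 UMIs. Symbols, given in lower case, matched the reference for 9248 of 9590 and 9197 of 9545 genes. A marker counted as detected at 10% of cells and 2 times the level of the other cells. Thinned levels are the mean over all draws of 2000 UMIs per cell, taken up after single draws were seen to differ in small clusters. Thinned shares come from 1 draw. Counts past 1.2 times cover genes of 50 or more UMIs in the libraries together. The background at like control levels, the depth bands and the weighting to the control mix were added after the data were seen. Ratios on a log2 scale for 1 gene use a pseudocount of 10 CPM.

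Named are all 8 genes, Srebf2, Scd2 and Fasn, the genes of highest and lowest ratio among the other lists, and the 5 genes of most like pattern. Dhcr7, Hsd17b7, Mylip and Elovl6 were named after their values were seen. A further gene that the choice of members gave and 1 gene of the lists are not reported here, and sums were computed without them. The 8 genes, the lists and the class names were chosen with earlier results of these data known. Alternatives covered depth, denominator, scaling, weight of cells, pseudocount, mitochondrial and doublet filters, cluster assignment, single cells, single genes and count minimum. The scripts were tested on simulated data. Python 3.11.15, numpy 2.4.6, pandas 2.3.3, scipy 1.17.1 and matplotlib 3.10.9 were used.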

Additional observations from a re-analysis of the deposited data

How the results depend on the processing

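No paired analysis was possible because each group has 1 library. Values here are log2 ratios, exposed over control, of the sum of the 8 genes. Over all cells it was 0.19, and 0.083 in cells thinned to 4000 UMIs, 0.12 without mitochondrial genes in the total, 0.13 divided by the median ratio of all genes, 0.14 without cells over 25% mitochondrial UMIs, 0.15 without the unnamed clusters, 0.27 without Hmgcs1, 0.056 in cells of 2000 to 4000 UMIs and -0.024, the other direction, at 4000 to 6000. In nephrogenic cells it was 0.23, and 0.17 in cells thinned to 1000 UMIs, 0.18 thinned to 2000, 0.16 thinned to 4000, 0.17 as a mean over cells, -0.21, the other direction, at 2000 to 4000 UMIs and 0.011 at 4000 to 6000. In distal cells it was 0.29, and 0.14 without mitochondrial genes in the total, 0.11 divided by the median ratio, 0.16 without cells over 25% mitochondrial UMIs, -0.040, the other direction, at 2000 to 4000 UMIs and 0.42 at 6000 to 10000. Mitochondria-rich proximal cells had 0.54 without Hmgcs1, against 0.042. Proximal cells had 0.18 as a difference of mean deposited log2 values, a scale on which the means of the 8 genes are added, against -0.083. In stromal cells the 24 alternatives run gave 0.27 to 0.46, and 1 of them, cells of 6000 to 10000 UMIs (0.27), moved by more than the half-width of the counting interval. With at least 200 UMIs, 450 endothelial, 1539 distal and 440 proximal genes were higher by 1.2 times, against 1247, 2951 and 1251 with at least 50. That filter tests fewer genes, and for the other changes the cause was not tested. For 48 values of single genes, 580 of 584 alternatives on the log2(level + pseudocount) scale differed from the value as deposited by less than the half-width of its counting interval and 4 by more. The sign turned in 24 of the 584, each for a gene whose interval included 1 (5 of them for Hmgcs1 over all cells, which ran from -0.12 to 0.084). The difference of mean deposited log2 values, a scale of its own, turned the sign for 2 of 48 and gave 0.064 for Insig1 in distal cells. Depth limits the podocyte-like, myeloid and mitochondria-rich proximal cells most, and with 1 library per group no alternative speaks to the spread between animals.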
